A study of Mus with 10 samples.

Results

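Type 1 innate lymphoid cells (ILC1s) of the liver were examined for the transcripts of 9 receptors of the TNF receptor family, *Tnfrsf1a*, *Tnfrsf1b*, *Tnfrsf4*, *Tnfrsf9*, *Tnfrsf14*, *Tnfrsf18*, *Tnfrsf25*, *Cd27* and *Fas*, which were taken by gene name from the 24564 genes of the deposited count table. The cells came from C57BL/6 mice aged 6 to 8 weeks, of either sex, and no agent was given to either group. In *Ncr1*gfp/gfp mice, both alleles of *Ncr1*, which encodes the activating receptor NKp46, are replaced by gfp; *Ncr1*+/+ mice carry the intact gene and were bought as a separate C57BL/6 stock. ILC1s were sorted as NK1.1+ CD49a+ CD49b- cells without CD3, with NKp46 as a further marker in *Ncr1*+/+ and GFP in *Ncr1*gfp/gfp mice, so that the gate differed between the groups. There were 5 libraries of each genotype; the labels do not say whether each library was made from a separate mouse, and the study speaks of RNA pools, so that n counts libraries, and the SDs and p-values measure the spread between them, which may be technical.

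TNF receptors are surface proteins that bind trimeric ligands of the TNF family, many of which are held on the membrane of a neighbouring cell. Receptors with a death domain in their cytoplasmic tail, here TNFR1 (*Tnfrsf1a*), DR3 (*Tnfrsf25*) and Fas, recruit adaptors such as TRADD or FADD and can lead to NF-κB activation or to caspase-mediated death. The others, TNFR2 (*Tnfrsf1b*), OX40 (*Tnfrsf4*), CD137 (*Tnfrsf9*), HVEM (*Tnfrsf14*), GITR (*Tnfrsf18*) and CD27, have no death domain and bind TRAF proteins; on lymphocytes they act as costimulatory receptors that feed NF-κB and MAP kinase signaling.

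Of the 9 receptors, 1 was called as different between the genotypes, beside 0.733% of all tested genes, and 1 call among 9 genes does not set the receptors apart from the rest. *Tnfrsf25*, the receptor of the cytokine TL1A, was lower in all 5 *Ncr1*gfp/gfp libraries than in any of the 5 *Ncr1*+/+ libraries, at 0.595 of the *Ncr1*+/+ level, and its call was lost when some single libraries were left out. The intervals of *Tnfrsf1b* and *Tnfrsf1a* were narrow and included no change, whereas those of the weakly expressed *Tnfrsf4* and *Fas* were wide.

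Library totals were between 15796253 and 22623133 counts, and 3 counts corresponded to 0.132 to 0.190 CPM (counts scaled to library size, with TMM factors between libraries). *Ncr1*, the targeted gene, had 2028 ± 99.9 CPM in *Ncr1*+/+ and 259 ± 97.4 CPM in *Ncr1*gfp/gfp ILC1s (SD, n = 5 each). The 7 ILC1 markers found in the table summed to between 3971 and 4268 CPM (*Ncr1*gfp/gfp) and between 3987 and 4248 CPM (*Ncr1*+/+); *Itga1*, which encodes CD49a, rose and *Il7r* fell. Of 7 NK cell markers, 4 were tested and none of these passed, and the list summed to between 54.1 and 89.6 CPM and between 46.8 and 61.5 CPM, respectively, with *Klra4* at 0 throughout. The 9 T cell markers summed to between 668 and 846 CPM in the *Ncr1*gfp/gfp libraries, above the 513 to 617 CPM of the *Ncr1*+/+ libraries. Among them *Cd3e*, *Cd3g* and *Cd8a* rose and *Cd28* fell, and *Cd3g* alone made up 594 to 793 CPM and 442 to 553 CPM of these sums. The regulatory T cell list reached at most 3.97 CPM (*Ncr1*gfp/gfp) and 9.64 CPM (*Ncr1*+/+), and *Foxp3* at most 0.127 and 0.220 CPM. In that list *Ctla4* had 0.957 ± 0.647 and 4.16 ± 2.45 CPM, respectively, without overlap. Its log2 fold change was -2.12 (edgeR, adjusted p = 0.0560), and its highest value was in *Ncr1*+/+ replicate 1, at 8.01 CPM. *Ikzf4*, also tested, had a log2 fold change of 0.49 (edgeR, adjusted p = 0.863). B cell markers reached at most 4.98 and 5.98 CPM, and myeloid markers 47.4 and 71.3 CPM. The endothelial list lay between 127 and 150 CPM and between 113 and 146 CPM, nearly all of it *Pecam1*, with *Lyve1* at 0 throughout. The hepatocyte list lay between 123 and 199 CPM and between 134 and 178 CPM; most of it was *Trf*, while *Alb* was highest in *Ncr1*gfp/gfp replicate 3, at 37.9 CPM, and in *Ncr1*+/+ replicate 1, at 28.0 CPM. Because T cells also make most of these receptors, the T cell values stand beside every result given here, and their part in the differences of the receptors was not tested.

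The deposited table names no genome build, and the starts of all 9 receptor genes in it differ from those in GRCm38. The study's methods name mm10, another name of that build, for mapping. In the coordinates of the table, 6 of the 9 receptor genes lie on chromosome 4, 2 on chromosome 6 and 1 on chromosome 19. *Tnfrsf25* occupies bases 151490043 to 151494228 of chromosome 4 on the plus strand, between *Plekhg5* and *Espn*. These flanking genes had log2 fold changes of -0.19 and 0.05, and edgeR gave them adjusted p-values of 0.474 and 0.982. *Tnfrsf4* and *Tnfrsf18* are near neighbours on the plus strand of chromosome 4, with a gap of 9732 bases that holds 1 other gene, *Gm10560*. On chromosome 6, *Cd27* and *Tnfrsf1a* are 112695 bases apart, and *Ltbr*, a further gene of the family, lies between them. Of the 9 receptor genes, *Cd27* and *Fas* overlap other listed genes. Those over *Fas* are *Gm38437*, *Mir3084-1* and *Snora19*, which had 0 counts in every library. The first of these is listed from 25016726 to 60850300 of chromosome 19 with 134 bases of exon. *E130112N10Rik*, on the strand opposite to *Cd27*, had means of 5.96 CPM (*Ncr1*gfp/gfp) and 7.15 CPM (*Ncr1*+/+); without strand, its reads cannot be told apart from those of *Cd27* where they overlap.

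To compare the receptors with each other, CPM was divided by exon length in kilobases. *Tnfrsf18*, which encodes GITR, had the highest level, 99.5 ± 6.13 CPM per kb in *Ncr1*+/+ and 88.5 ± 7.94 CPM per kb in *Ncr1*gfp/gfp ILC1s (SD, n = 5 each). *Tnfrsf1a* followed with 81.3 ± 8.35 and 79.3 ± 5.60 CPM per kb, and then *Tnfrsf1b* with 64.2 ± 4.18 and 64.3 ± 3.35 CPM per kb. Over the 10 libraries the range of *Tnfrsf1a* overlapped those of both others, although it was above *Tnfrsf1b* within each of the 10. *Cd27*, at 65.2 ± 2.36 and 60.1 ± 5.22 CPM per kb, was not separated from *Tnfrsf1b* by more than its spread, and *Tnfrsf9* had 51.2 ± 9.45 and 59.1 ± 12.5 CPM per kb. *Cd27* was above *Tnfrsf9* in all 5 *Ncr1*+/+ libraries, while in *Ncr1*gfp/gfp ILC1s these receptors differed by less than their spread. Below them, without overlap, was *Tnfrsf14*, at 33.5 ± 3.36 and 30.4 ± 4.3 CPM per kb.

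A wide step, 4.81-fold between the means, separated *Tnfrsf14* from the 3 weakly expressed receptors. *Tnfrsf25* had 8.33 ± 1.95 CPM per kb in *Ncr1*+/+ and 4.96 ± 0.846 CPM per kb in *Ncr1*gfp/gfp ILC1s, while *Tnfrsf4*, which encodes OX40, had 5.93 ± 1.69 and 6.41 ± 1.07 CPM per kb (SD, n = 5 each). *Tnfrsf25* exceeded *Tnfrsf4* in 5 of the 10 libraries, so that these neighbours in the order were not distinct. *Fas* was the lowest, at 2.68 ± 0.493 and 2.62 ± 0.620 CPM per kb, and was below *Tnfrsf4* within each library. Counts per library ranged from 52 to 115 for *Fas*, from 71 to 202 for *Tnfrsf4* and from 155 to 382 for *Tnfrsf25*, against 4683 to 6677 for *Tnfrsf1b*. All 9 receptors passed the filter on low counts.

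**Figure D1:**
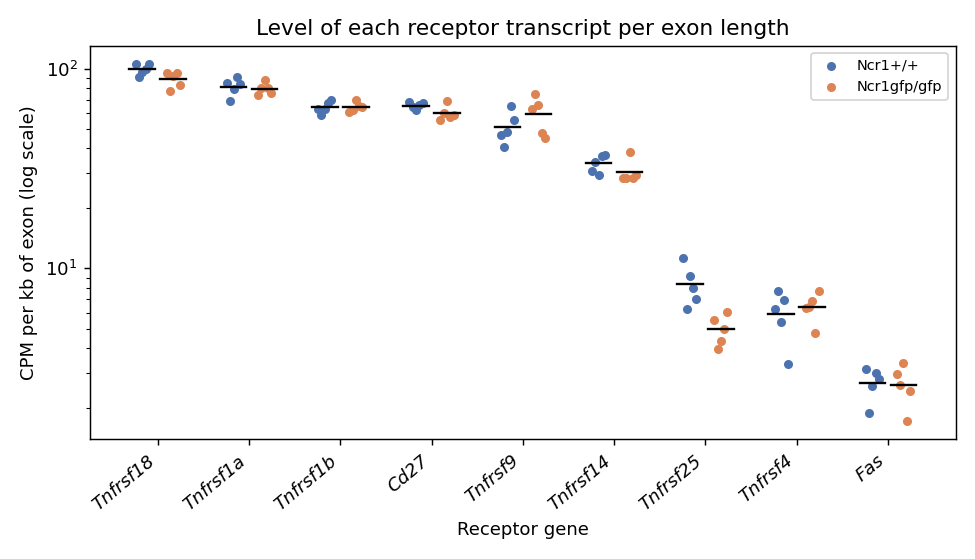
Level of the 9 receptor transcripts as CPM per kilobase of exon, on a log axis, with 1 point for each library (5 per genotype) and a line at the mean of each genotype. From *Tnfrsf18* to *Tnfrsf14* the levels are 28.2 CPM per kb or more, and *Tnfrsf25*, *Tnfrsf4* and *Fas* reach at most 11.2 CPM per kb.

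The receptors with a death domain were compared between the genotypes first; values per library are given in the order of replicates 1 to 5. *Tnfrsf25* encodes DR3, which responds to TL1A, the product of *Tnfsf15*. It had 21.4, 11.9, 17.3, 15.2 and 13.4 CPM in the *Ncr1*+/+ libraries and 10.5, 7.54, 8.20, 9.51 and 11.5 CPM in the *Ncr1*gfp/gfp libraries. The genotypes did not overlap, but the gap was small, since the lowest *Ncr1*+/+ library was at 11.9 and the highest *Ncr1*gfp/gfp library at 11.5 CPM. Among *Ncr1*+/+ libraries, replicate 1 was the highest. The mean fell from 15.9 ± 3.71 CPM in *Ncr1*+/+ to 9.44 ± 1.61 CPM in *Ncr1*gfp/gfp ILC1s (SD, n = 5 each). This is a log2 fold change of -0.75 with a 95% confidence interval from -1.11 to -0.39 (standard error 0.17; edgeR, adjusted p = 0.0311 over 11463 genes). It ranked 125th by p-value among all tested genes.

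The call of *Tnfrsf25* was near the threshold and depended on single libraries. The adjusted p-value from edgeR rose to 0.0997 without *Ncr1*+/+ replicate 1, 0.0871 without replicate 3 and 0.0640 without replicate 4 of that genotype. It was 0.0860 without *Ncr1*gfp/gfp replicate 2, 0.0742 without replicate 3 and 0.0609 without replicate 4. Without any one of the other 4 libraries the call stayed, and over all 10 of these fits the log2 fold change was between -0.84 and -0.62. When *Ncr1*+/+ replicate 1 and *Ncr1*gfp/gfp replicate 3, which had the most *Alb*, were left out together, the log2 fold change was -0.57 (adjusted p = 0.179 in the same edgeR test). It was -0.66 with limma-voom and sample quality weights (adjusted p = 0.0580) and -0.75 with DESeq2 (adjusted p = 0.00532).

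*Tnfrsf1a*, which encodes TNFR1, the receptor through which soluble TNF acts on most cells, had 183, 147, 169.8, 195 and 179 CPM in the *Ncr1*+/+ libraries. In the *Ncr1*gfp/gfp libraries it had 158, 173, 189, 172 and 162 CPM, and these values all fell within the range of *Ncr1*+/+ libraries. The log2 fold change was -0.03 (95% confidence interval from -0.19 to 0.12, edgeR, adjusted p = 0.923), so that the interval ran from 0.879 to 1.08 of the *Ncr1*+/+ level.

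*Fas* encodes the receptor of Fas ligand, which triggers apoptosis through FADD and caspase-8. Its CPM was 5.66, 3.39, 4.65, 5.40 and 5.06 in the *Ncr1*+/+ libraries and 5.33, 4.71, 6.08, 3.09 and 4.40 in the *Ncr1*gfp/gfp libraries. Both the highest and the lowest library were *Ncr1*gfp/gfp. The log2 fold change was -0.03 (95% confidence interval from -0.57 to 0.51, edgeR, adjusted p = 0.982), and the interval ran from 0.672 to 1.43 of the *Ncr1*+/+ level at these low counts.

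**Figure D2:**
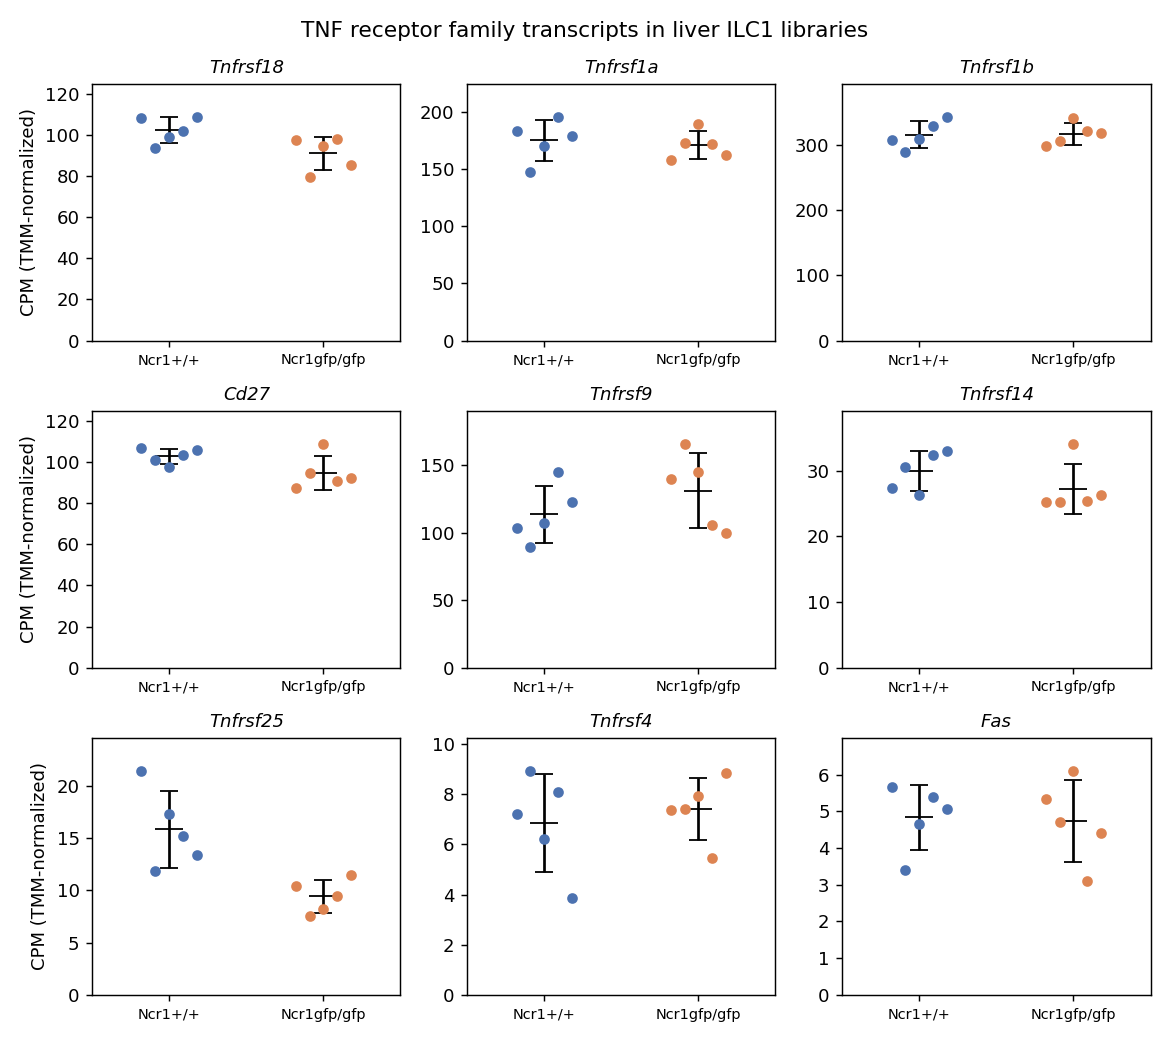
CPM of each receptor in the 5 *Ncr1*+/+ and 5 *Ncr1*gfp/gfp libraries (points, replicates 1 to 5 from left to right), with the mean and SD as bars and every axis starting at 0. Only the panel of *Tnfrsf25* shows genotypes that do not overlap, with at least 11.9 CPM in *Ncr1*+/+ and at most 11.5 CPM in *Ncr1*gfp/gfp ILC1s.

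Among the receptors without a death domain, *Tnfrsf1b*, *Cd27*, *Tnfrsf18* and *Tnfrsf14* did not pass the test. *Tnfrsf1b* encodes TNFR2, which responds best to membrane-bound TNF. Its CPM was 307, 289, 309, 329 and 342 in the *Ncr1*+/+ libraries and 297, 305, 340.3, 321 and 317 in the *Ncr1*gfp/gfp libraries, with the range of the second inside that of the first. It had the smallest difference of the 9 receptors, a log2 fold change of 0.00 (95% confidence interval from -0.11 to 0.12, edgeR, adjusted p = 0.992). The interval covered 0.923 to 1.09 of the *Ncr1*+/+ level, and the CV between libraries was 6.51% in *Ncr1*+/+ and 5.21% in *Ncr1*gfp/gfp ILC1s. Within each library, the level of *Tnfrsf1b* per kb was 0.794 ± 0.0568 of that of *Tnfrsf1a* in *Ncr1*+/+ and 0.812 ± 0.0327 in *Ncr1*gfp/gfp ILC1s (SD, n = 5 each), so that the balance of the TNF receptors differed by less than the spread between libraries.

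*Tnfrsf18* encodes GITR, a costimulatory receptor that is abundant on regulatory T cells and is carried by ILC1s. In the *Ncr1*+/+ libraries it had 108, 93.8, 99.2, 102 and 109 CPM, and in the *Ncr1*gfp/gfp libraries it had 97.9, 79.9, 94.7, 98.1 and 85.3 CPM. Only *Ncr1*+/+ replicate 2 was below the highest *Ncr1*gfp/gfp libraries. The log2 fold change was -0.17 with a 95% confidence interval from -0.32 to -0.02 (unadjusted p = 0.0328, edgeR, adjusted p = 0.365), so that the interval of the single gene left out 0 but the difference did not pass adjustment over all tested genes.

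*Cd27* encodes the receptor of CD70 and marks less mature NK cells. Its CPM was 107, 101, 97.4, 103 and 106 in the *Ncr1*+/+ libraries and 87.2, 94.6, 109, 90.7 and 92.4 in the *Ncr1*gfp/gfp libraries. In *Ncr1*gfp/gfp ILC1s, 4 libraries were below every *Ncr1*+/+ library, and replicate 3 was above all of them. Replicate 3 was the library with the most *Alb* and the most *Cd3e* but the least *Cd4*. The log2 fold change was -0.12 (95% confidence interval from -0.26 to 0.03, edgeR, adjusted p = 0.558) and it was -0.17 without that library (adjusted p = 0.293).

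The values of *Tnfrsf14* had the same shape. This gene encodes HVEM, which binds LIGHT as well as the inhibitory receptor BTLA. It had 27.3, 30.5, 26.3, 32.4 and 33.0 CPM in the *Ncr1*+/+ libraries and 25.2, 25.2, 34.0, 25.3 and 26.2 CPM in the *Ncr1*gfp/gfp libraries. Again, *Ncr1*gfp/gfp replicate 3 was above all *Ncr1*+/+ libraries and the other 4 were below them. The log2 fold change was -0.14 (95% confidence interval from -0.37 to 0.10, edgeR, adjusted p = 0.737) and it was -0.23 without replicate 3 (adjusted p = 0.413).

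*Tnfrsf9* and *Tnfrsf4* had positive log2 fold changes that did not pass the test. *Tnfrsf9* encodes CD137, a costimulatory receptor that NF-κB induces in activated lymphocytes. It had 104, 89.8, 108, 145 and 123 CPM in the *Ncr1*+/+ libraries and 139.6, 166, 145, 106 and 100 CPM in the *Ncr1*gfp/gfp libraries. Libraries of both genotypes spread widely, with a CV of 18.5% and 21.1%, and *Ncr1*gfp/gfp replicates 4 and 5 lay among the lower *Ncr1*+/+ libraries. The log2 fold change was 0.21 (95% confidence interval from -0.06 to 0.47, edgeR, adjusted p = 0.581).

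*Tnfrsf4*, which encodes OX40, had 7.23, 8.91, 6.20, 8.07 and 3.86 CPM in the *Ncr1*+/+ libraries and 7.36, 7.40, 7.93, 5.47 and 8.86 CPM in the *Ncr1*gfp/gfp libraries. The lowest value was in *Ncr1*+/+ replicate 5, and without that library the log2 fold change of 0.11 became -0.04. The 95% confidence interval over all libraries was from -0.36 to 0.58 (edgeR, adjusted p = 0.923), so that a difference of up to 1.5-fold lay within it.

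**Figure D3:**
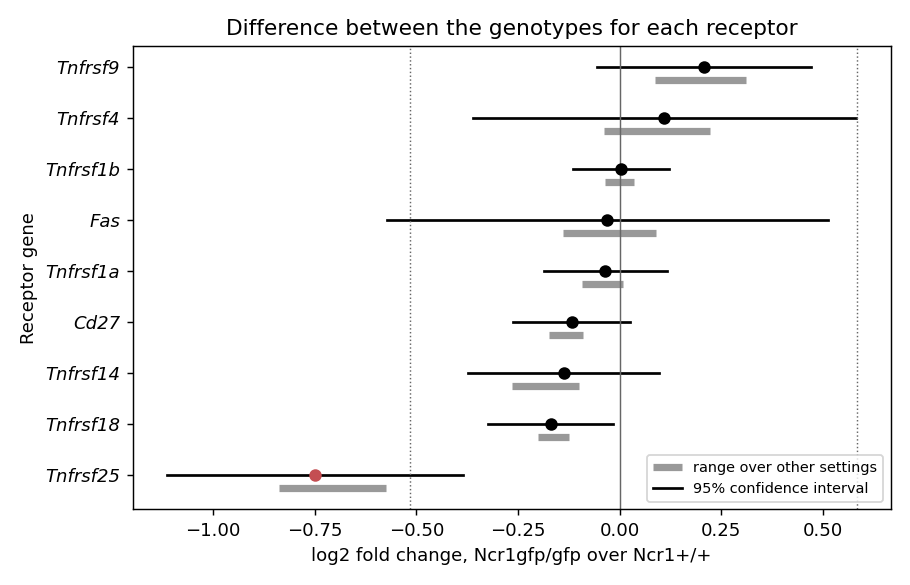
Log2 fold change of each receptor in *Ncr1*gfp/gfp over *Ncr1*+/+ ILC1s (points, red where called), with its 95% confidence interval (black) and the range over the other fits and left-out libraries (grey); dotted lines mark fold changes of 0.7 and 1.5. *Tnfrsf25* lies at -0.75 with an interval below 0, and the intervals of *Tnfrsf4* and *Fas* are the widest among the receptors that were not called.

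Over all receptors, 1 of 9 was called (an adjusted p below 0.05 together with a change to over 1.5 or under 0.7 of the level), and the same rule called 0.733% of the 11463 tested genes. On the adjusted p alone the count was the same 1 of 9, beside 1.35% of tested genes, and *Tnfrsf25* was also the 1 receptor without overlap of CPM between the genotypes, beside 3.11% of tested genes. The median log2 fold change of the receptors was -0.03, against 0.00 over all tested genes, with 6 of 9 receptors below 0. Summed over the 9 receptors, the CPM was 867 ± 63.5 in *Ncr1*+/+ and 853 ± 49.6 in *Ncr1*gfp/gfp ILC1s (SD, n = 5 each), with overlapping ranges.

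**Figure D4:**
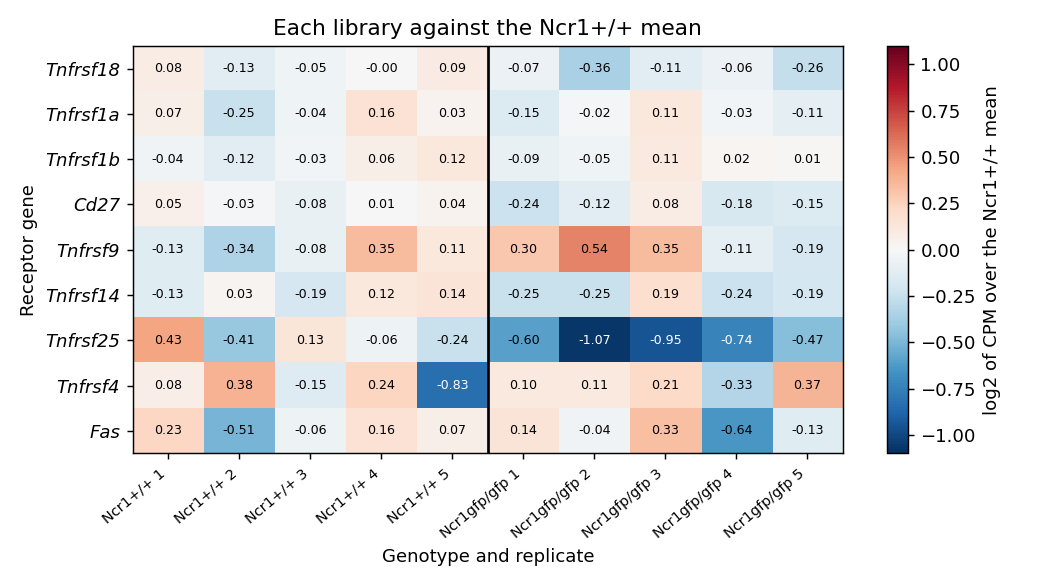
Log2 ratio of the CPM in each library to the mean of the 5 *Ncr1*+/+ libraries, for each receptor (rows) and library (columns, *Ncr1*+/+ left of the line). In the row of *Tnfrsf25*, *Ncr1*gfp/gfp libraries lie between -1.07 and -0.47; in *Ncr1*gfp/gfp replicate 3, *Cd27*, *Tnfrsf14*, *Tnfrsf1a*, *Tnfrsf1b* and *Fas* are among those above 0.

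Next, ligand genes of the TNF family were examined in the same cells, since ILC1s both carry the receptors and make several ligands of the family. Of 10 ligand genes, 6 passed the filter on low counts, and none of these passed the test with edgeR, DESeq2 or limma-voom. An unadjusted edgeR p-value under 0.05 was found for 2 of the 6, beside 1303 of the 11463 tested genes. *Fasl*, the ligand of Fas, was the most counted, with 255 ± 21.3 CPM in *Ncr1*+/+ and 280.1 ± 17.5 CPM in *Ncr1*gfp/gfp ILC1s (SD, n = 5 each; log2 fold change 0.14, adjusted p = 0.420, edgeR). *Ltb* and *Lta*, which encode the lymphotoxin chains, had log2 fold changes of -0.15 and -0.83 (adjusted p = 0.459 and 0.548, edgeR), and *Lta* was low, at 2.99 ± 1.69 and 1.67 ± 0.806 CPM. *Tnfsf14*, which encodes the HVEM ligand LIGHT, had 71.2 ± 7.48 CPM in *Ncr1*+/+ and 61.4 ± 6.69 CPM in *Ncr1*gfp/gfp ILC1s (log2 fold change -0.21, adjusted p = 0.343, edgeR). *Tnf* had 37.5 ± 3.50 and 35.6 ± 7.37 CPM, and *Tnfsf9*, the ligand of CD137, 3.91 ± 1.38 and 3.16 ± 0.824 CPM.

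The remaining ligands of the list were at or near the limit of detection. *Tnfsf15*, which encodes the DR3 ligand TL1A, was at most 8 counts in any library, *Tnfsf4*, the OX40 ligand gene, at most 17, and *Cd70* at most 4. No library had a count on *Tnfsf18*, the GITR ligand gene, which allows up to 0.132 to 0.190 CPM. *Tnfrsf18* was thus the most expressed receptor per kb beside a ligand gene with no count, and *Tnfrsf25* was read in cells with few or no *Tnfsf15* counts.

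Of 19 other genes of the receptor family, 8 passed the filter, 7 of these had a negative log2 fold change (49.3% of all tested genes did), 1 passed the test (1.35% of tested genes) and 3 did not overlap between the genotypes (3.11% of tested genes). *Tnfrsf26*, a mouse gene without a known ligand, fell from 22.2 ± 3.00 CPM in *Ncr1*+/+ to 14.8 ± 2.80 CPM in *Ncr1*gfp/gfp ILC1s (SD, n = 5 each; log2 fold change -0.59, standard error 0.14; edgeR, adjusted p = 0.0392). It had 20.3, 20.1, 27.4, 21.4 and 21.9 CPM in the *Ncr1*+/+ libraries and 14.4, 11.2, 17.2, 13.3 and 18 CPM in the *Ncr1*gfp/gfp libraries, without overlap. The gene is listed on chromosome 7 from 150793590 to 150813750, beside its close relatives *Tnfrsf22* and *Tnfrsf23*, which had at most 53 and 17 counts in any library; reads could be shared between these genes, which was not tested, so that its value is uncertain. Its call was lost in 7 of 10 fits with 1 library fewer, being kept without *Ncr1*+/+ replicate 2 or *Ncr1*gfp/gfp replicate 3 or 5, and the adjusted p-value reached 0.140 (edgeR) without *Ncr1*+/+ replicate 3.

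*Tnfrsf13c*, which encodes the BAFF receptor of B cells, had 8.81 ± 1.76 CPM in *Ncr1*+/+ and 5.07 ± 0.744 CPM in *Ncr1*gfp/gfp ILC1s (SD, n = 5 each), with no overlap and a log2 fold change of -0.80 (edgeR, adjusted p = 0.0590; 0.0111 with DESeq2). The B cell marker *Ms4a1* was at most 0.132 CPM in any library. *Tnfrsf10b*, which encodes the mouse TRAIL receptor, also did not overlap, at 2.59 ± 0.268 and 1.62 ± 0.548 CPM, but did not pass the test (log2 fold change -0.67, adjusted p = 0.567, edgeR). *Relt*, *Tnfrsf21* and *Ltbr* had log2 fold changes of -0.01, 0.16 and -0.36, with adjusted p-values of at least 0.777 (edgeR). *Tnfrsf22* and *Tnfrsf12a* were near the limit of detection, with at most 53 and 43 counts in a library.

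Downstream of the receptors, all 28 adaptors, ubiquitin enzymes, kinases, death proteins and the sheddase *Adam17* were tested. None had an adjusted p-value under 0.05 with edgeR, while 1 passed with DESeq2 and 0 with limma-voom. An unadjusted edgeR p-value under 0.05 was found for 5 of the 28, beside 1303 of the 11463 tested genes. The median log2 fold change of this list was -0.01, with 15 of 28 genes below 0. The smallest p-value was that of *Traf1*, a TRAF protein that NF-κB induces, with 146 ± 5.81 CPM in *Ncr1*+/+ and 123 ± 11.2 CPM in *Ncr1*gfp/gfp ILC1s (SD, n = 5 each). Its values did not overlap, and its log2 fold change was -0.25 (adjusted p = 0.0713, edgeR; 0.0182 with DESeq2). *Map3k14* and *Birc3*, which encode NIK and cIAP2 of the non-canonical NF-κB pathway, had log2 fold changes of -0.21 and -0.19 (adjusted p = 0.358 and 0.363, edgeR). *Traf5*, *Xiap* and *Cyld* had positive log2 fold changes of 0.23, 0.14 and 0.11, with adjusted p-values between 0.318 and 0.517 (edgeR). Genes of the death-inducing complex below Fas and TNFR1 differed by less than their spread, with log2 fold changes of 0.13 for *Fadd*, 0.01 for *Casp8*, -0.03 for *Cflar* and -0.12 for *Tradd*.

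**Figure D5:**
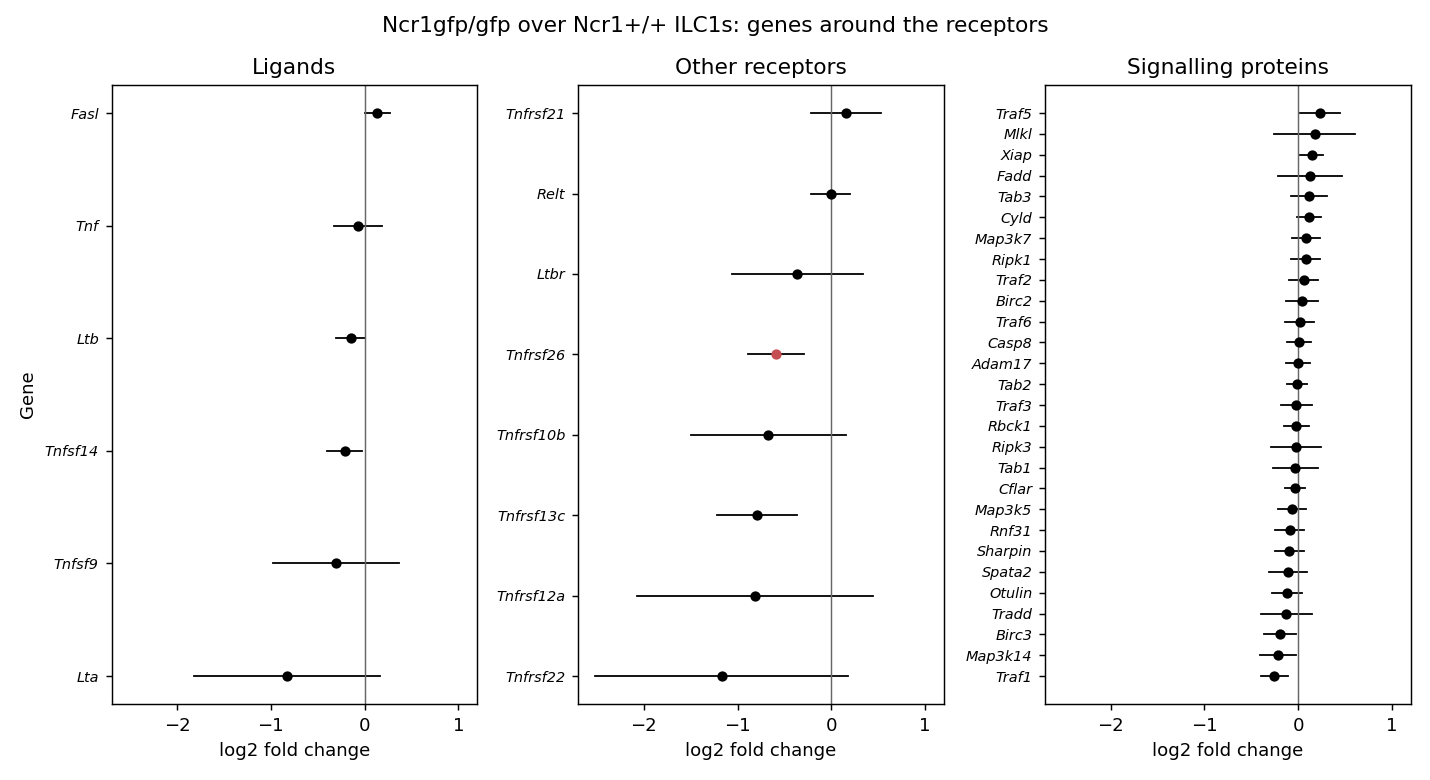
Log2 fold change of *Ncr1*gfp/gfp over *Ncr1*+/+ ILC1s with 95% confidence intervals for the tested genes of the ligand list (6), the other receptors (8) and the signalling list (28), with red for an adjusted p-value under 0.05. *Tnfrsf26*, at -0.59, is the single red point, and the signalling genes lie between -0.25 and 0.23.

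Finally, the receptors were compared by how their levels moved over the 10 libraries, as Pearson's r of log2(CPM + 0.5). These values are a description of 10 libraries in which genotype and gate changed together and depth also varied. The most alike genes are the highest of all tested genes. Of the 36 pairs of receptors, 26 had a positive r. The highest were 0.824 for *Cd27* with *Tnfrsf14* and 0.760 for *Tnfrsf1a* with *Tnfrsf1b*, and they were 0.784 and 0.771 once the mean of each genotype was removed. *Tnfrsf4* with *Tnfrsf18*, the neighbours on chromosome 4, had the lowest, -0.52. *Tnfrsf25* was most like *Tnfrsf13c*, with r = 0.952, or 0.852 within genotypes, and *Zhx2*, with r = 0.949, or 0.893 within genotypes.

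For *Tnfrsf18*, the most alike genes were *Birc3* (r = 0.965) and *9130023H24Rik* (r = 0.955), and for *Tnfrsf9* they were *Efhd2* (r = 0.950) and *Nkg7*, a granule protein gene of cytotoxic lymphocytes (r = 0.943). *Tnfrsf1a* was most like *Prelid1* and *Ddb1*, and *Tnfrsf1b* was most like *Grk2* and *Aprt*. *Tnfrsf4* was most like *Hectd4* and *Arid1a*, *Tnfrsf14* was most like *Sars2* and *Ticam1*, *Cd27* was most like *Cdip1* and *Tm2d2*, and *Fas* was most like *Rad54l* and *Prdx5*. Over these genes r was between 0.880 and 0.963.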

How the data were processed

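The data are RNA-seq libraries of sorted liver ILC1s, 5 for each genotype. From 2 ng of total RNA, cDNA was amplified with SMART-Seq v4, which does not mark strand, and read for 51 cycles. After trimming, the authors used STAR 020201 for mapping and HTSeq 0.6.0, at default settings, for gene counts, and deposited these raw counts, with an exon length for each gene. Reads of a gene and of an overlapping gene on the other strand cannot be told apart.

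Here, genes were filtered with filterByExpr (11463 of 24564 kept), scaled with TMM factors and tested in edgeR 4.0.16 (R 4.3.3) by quasi-likelihood, genotype being the single term, with Benjamini-Hochberg adjustment over all tested genes. The thresholds in the study's methods were kept for a call: an adjusted p below 0.05 together with a change to over 1.5 or under 0.7 of the level. The study's results text instead names a log2 fold change above 1, which was used here as another setting. Standard errors were derived from the F statistic, and confidence intervals are at 95% for single genes. The fit was tested on simulated data. Alternatives were the likelihood ratio test, DESeq2 1.42.0, voom in limma 3.58.1, other normalizations and filters, a replicate block and leaving out libraries. No pair of libraries of 1 genotype was alike within sampling noise (chi-square per gene between 9.25 and 24.1 over 20 pairs). The limit of 3 counts covers counting error only, since the reads carry no molecular identifiers.

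The members and lists were chosen with earlier results of these data known. Named genes are the 9 receptors, all 10 ligand genes, of the other receptors the 6 with the most CPM and any that passed the test, of the signalling list the 6 with the smallest p-values, for each receptor the 2 genes with the highest correlation, *Ncr1*, and fixed markers of ILC1s, NK cells, T cells, regulatory T cells, B cells, myeloid cells, hepatocytes and endothelial cells, of which *Zfp683* was not matched. *Tnfrsf22*, *Tnfrsf23*, *Tnfrsf12a*, the death complex genes and genes beside the receptors were named after their values were seen.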

Additional observations from a re-analysis of the deposited data

Results flagged for a closer look

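Of 48 sets of 5 libraries (receptors, ligands, marker sums and depth in each genotype), 2 held a library far from the rest, by the gap to its nearest neighbour over the range of the set, and 2.4 would by chance. *Ncr1*gfp/gfp replicate 3 had 34.0 CPM of *Tnfrsf14*, and the next highest of that genotype had 26.2 CPM. The same library had the highest *Alb* value and, of the T cell markers, the highest *Cd3d*, *Cd3e*, *Cd8a* and *Trat1* values. *Cd3g*, *Cd8b1*, *Cd5* and *Cd28* were higher in other libraries, and *Cd4* was lowest in this one, at 0.740 CPM. The part of these genes in the *Tnfrsf14* value was not tested. The summed hepatocyte markers were 178 CPM in *Ncr1*+/+ replicate 1, against 146 CPM in the next *Ncr1*+/+ library; this library also had the highest *Tnfrsf25* value, 21.4 CPM, and the call of *Tnfrsf25* was lost without it (adjusted p = 0.0997, edgeR).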

How the results depend on the processing

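Of 171 values of the 9 receptors' log2 fold changes under other settings, 152 kept their direction and their side of the threshold, 8 lost the threshold, all of *Tnfrsf25*, and 11 changed sign, all of receptors that were not called. With 1 library left out, the log2 fold change ran from -0.092 to 0.0088 for *Tnfrsf1a*, from -0.028 to 0.035 for *Tnfrsf1b*, from -0.037 to 0.22 for *Tnfrsf4* and from -0.14 to 0.089 for *Fas*; it was -0.036 for *Tnfrsf1b* without both libraries with the most *Alb*. The count of called receptors was 0 with limma-voom, 0 without both of those libraries, 0 at an absolute log2 fold change above 1, and 0 to 1 with 1 library left out, where 6 of 10 fits lost *Tnfrsf25*; fits with fewer libraries have less power, and the cause was not tested further. At an adjusted p-value under 0.05 alone, the counts were 0 with limma-voom, 0 without both libraries, and 0 to 1 with 1 library left out. Called genes in all, 84, became 138 with the likelihood ratio test, 131 without a filter and 126 with DESeq2. They became 23 at an absolute log2 fold change above 1, and 60 to 98 with 1 library left out. For the other receptors the count of 1 became 2 with DESeq2 and with the likelihood ratio test, 0 with limma-voom, 0 without both libraries and 0 to 2 with 1 library left out. The signalling count of 0 became 1, *Traf1*, with DESeq2, the likelihood ratio test or no filter, and 0 to 1 with 1 library left out. No ligand of the list passed under any setting.

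Replicate numbers are shared by the genotypes, but same-numbered libraries did not deviate together (correlations between -0.03 and 0.05; 1 of 5 libraries of each genotype was most like its own number), so the numbers give no pairing. A fit with the replicate block called 87 genes and 1 of the 9 receptors, *Tnfrsf25*, at a log2 fold change of -0.73. Other normalizations moved the median log2 fold change of all genes by less than 0.1. Low counts limit the weakly expressed genes, among them *Fas* with 52 to 115 counts a library and *Tnfrsf22* with 1 to 53.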

Other observations

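The receptors with the largest difference in each direction were set against each other after their values were seen. The level of *Tnfrsf9* per kb was 6.39 ± 1.69 times that of *Tnfrsf25* in *Ncr1*+/+ and 12.5 ± 4.54 times in *Ncr1*gfp/gfp ILC1s (SD, n = 5 each), with ranges of 4.15 to 8.15 and 7.47 to 18.8 that overlapped. *Cd27*, with a log2 fold change of -0.12, had the largest difference in neither direction. Its ratio over *Tnfrsf25* was 8.15 ± 1.78 and 12.5 ± 2.91, with ranges of 6.02 to 10.2 and 9.72 to 16. Since *Tnfrsf25* and *Tnfrsf9* were picked for their differences, the ratios are a description.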
